A study of Mus musculus with 4 samples.

Results

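Rab GTPases and the SNARE proteins of the Vamp, syntaxin and Snap families were followed in libraries labelled as MLE-12, a mouse line grown from a lung tumour that a viral oncogene under a surfactant protein C promoter had caused, and used as a model of alveolar type 2 cells. The members were the protein-coding genes whose mouse symbols belong to the numbered Rab, Vamp, Stx and Snap (23, 25, 29 and 47) families. They numbered 86 of the 53465 genes in the count table, 59 Rabs and 27 SNAREs. Polyadenylated RNA had been sequenced from 2 control libraries (replicates 1 and 2) and 2 libraries of cells kept with 5 µM 1-nitropyrene, a nitrated polycyclic hydrocarbon of diesel exhaust, for 12 h (replicates 2 and 3). The stated purpose was the influence of the compound on translation of Fbxw7 mRNA, whereas the counts give RNA levels.

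Rabs are small GTPases that mark the membranes of the cell. In the GTP-bound form, set by exchange factors and ended by GTPase-activating proteins, a Rab recruits effectors that move, tether and sort vesicles, and prenyl groups on cysteines near its C-terminus hold it in the membrane. SNAREs then fuse the tethered membranes: an R-SNARE on one membrane, usually a Vamp, zips into a helical bundle with the Q-SNAREs on the other. At the plasma membrane these Q-SNAREs are usually a syntaxin and a Snap protein. In alveolar type 2 cells this machinery releases surfactant from lamellar bodies, with Stx2, Snap23 and Vamp2 among the SNAREs known to take part.

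Total counts ranged from 6908055 to 10773733 per library, and the members together took 0.342% to 0.352% of them. Unless another unit is named, values are CPM (a gene's share of the library's counts, scaled with TMM factors), SD is over n = 2 libraries per group, and the adjusted p of a gene comes from the quasi-likelihood test of edgeR, with 7738 genes left after a filter on low counts. A gene was called at an adjusted p under 0.05. Separate cultures are not mentioned in the labels, so a p-value measures only the spread between these libraries, which may be technical. In bulk RNA, fewer cells of a type and less RNA per cell cannot be told apart. That spread was pooled over all genes.

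The libraries held no counts for many genes that define the labelled cell type. All 12 markers of epithelium, among them Epcam, Cdh1 and Krt8, had 0 counts in all 4 libraries, and so did 6 of 12 markers of alveolar type 2 cells, including Sftpb and Nkx2-1. The other 6 of these had a count, and 4 were tested. The summed level of the alveolar type 2 list was 116 and 122 CPM in the control pair and 131 and 129 CPM with 1-nitropyrene. Of 14 mesenchymal markers 13 had a count, and their summed level was 1048 and 1045 CPM in the control pair and 1257 and 1249 CPM with 1-nitropyrene. Of the 6 tested, 2 rose (Vim and Fn1, 33.3%) and 3 fell (Col5a1, Sparc and Acta2, 50%), and Thy1 was at 0. Of all genes tested 13.2% rose and 11.2% fell. The part of these cells or genes in the results below was not tested. The summed markers of endothelium and of immune cells stayed at or below 0.43 CPM in each library. Of 24 genes that most cells use, 6 had at most 6 counts over all 4 libraries (B2m, Cox4i1, Gusb, Ldha, Rpl13a and Rps18), so a member without counts is described here only as listed at 0. Of the other 18, all tested, 11 rose (61.1%) and 1 fell (5.56%), against 13.2% and 11.2% of all genes tested. The summed level of the list was 19096 and 19212 CPM in the controls against 22702 and 22771 CPM with 1-nitropyrene. The part of this shift in the members' results was not tested. The counts are of reads assigned to mouse genes, and whether all reads came from mouse cells, rather than cells of another species, was not tested. If they did not, the levels and the zeros given here would not be those of the mouse transcripts.

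The sequences of 2 sets of related members are shown first. In the first set Rab10 and Rab13 were called in opposite directions. Otherwise some relatives were called and others were not, which does not itself show that their responses differed. Rab8a, Rab8b, Rab10 and Rab13 are close relatives that act in transport to the cell surface, and Rab11a and Rab11b act on recycling endosomes. The last 36 bases of each coding sequence, 5′ to 3′ on the sense strand and stop codon included, are given with in-frame cysteine codons in capitals. They were read from GENCODE M21 transcripts (GRCm38).
Rab8a: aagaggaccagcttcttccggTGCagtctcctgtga
Rab8b: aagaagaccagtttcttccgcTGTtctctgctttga
Rab10: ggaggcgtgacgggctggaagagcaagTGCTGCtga
Rab13: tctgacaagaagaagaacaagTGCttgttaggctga
Rab11a: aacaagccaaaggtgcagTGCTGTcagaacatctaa
Rab11b: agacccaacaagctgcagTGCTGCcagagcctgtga
Rab10 ends in 2 adjacent cysteine codons, Rab8a, Rab8b and Rab13 have 1 such codon followed by 3 others before the stop, and the Rab11 pair has 2 followed by 3 others. The longest run of identical bases between the coding sequences of Rab10 and Rab13 was 17 bases, and between Rab11a and Rab11b 14 bases.

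The second set is the centre of the R-SNARE helix, where the arginine that gives the class its name faces the glutamines of the Q-SNAREs. The 27 bases around this codon, 5′ to 3′ on the sense strand with the arginine codon in capitals, are given for 4 Vamps with transcripts in GENCODE M21.
Vamp2: aaggtcctggagCGGgaccagaagttg
Vamp3: aaggtgttagaaAGAgaccagaagctc
Vamp4: aaggtaattgaaAGAggagagaggctg
Vamp8: cggatcttggccAGAggggagaacctg
The coding sequences of Vamp2 and Vamp8 shared no identical run longer than 10 bases, and those of Vamp2 and Vamp3 none longer than 17 bases. No 50-base stretch of the annotated Vamp2, Vamp8, Rab13 or Stx2 transcripts occurred in transcripts of another gene.

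Of the 86 members, 48 passed the filter (32 Rabs and 16 SNAREs). Another 13 had between 1 and 27 counts over all libraries, and 25 (29.1%) were listed at 0 in all 4, against 55.2% of all 21942 protein-coding genes. Those at 0 included Rabs of regulated secretion (Rab3a, Rab3b, Rab27b) and of lysosome-related organelles (Rab32, Rab38), the neuronal SNAREs Snap25 and Vamp1, and also Rab4b, Rab9, Rab43 and Snap47. For Rab43 and Rab4b, 74.5% and 58.1% of all 50-base stretches of their transcripts also occur in transcripts of another gene on the same strand. Whether this bears on their counts was not tested. A count of 0 allows up to 0.278 CPM of total counts in the deepest library and 0.434 CPM in the shallowest, at a floor of 3 counts and for counting error only.

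Levels compared between genes are CPM per kb of annotated exon. The controls' mean level was highest for Rab2a (174 CPM per kb) and Rab1a (137), which act between endoplasmic reticulum and Golgi, followed by Rab7 of late endosomes (112), Rab10 (98.3) and Rab6a of the Golgi (80.1). With Rab34, these 6 Rabs made up 67.8% of the summed Rab level per kb in each control and 68.0% and 68.8% in the treated libraries. Among syntaxins Stx4a of the plasma membrane led (10.5 CPM per kb in the controls), and among Vamps Vamp2 (9.87) and Vamp7 (8.71). Rab10 and Rab7 changed places between the groups: with 1-nitropyrene Rab10 stood at 114 CPM per kb and Rab7 at 107. The summed CPM of all Rabs was 3252 and 3267 in the controls and 3252 and 3300 with 1-nitropyrene, so the groups overlapped. The summed syntaxins (131 and 128 CPM in the controls, 134 and 123 CPM with 1-nitropyrene) and the summed Snaps (12.2 and 12.9 CPM against 10.8 and 13.6 CPM) overlapped too.

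**Figure D1:**
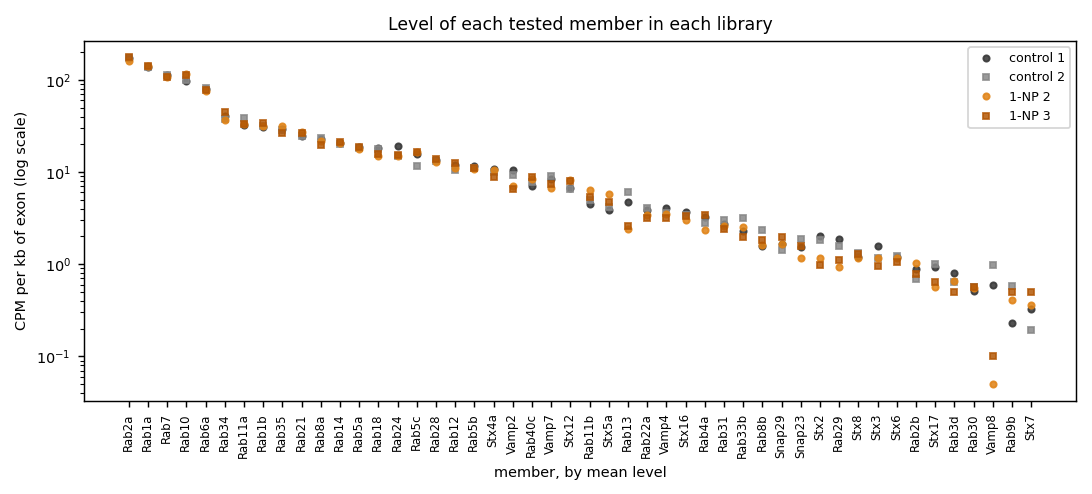
Level of each of the 48 tested members in each library, in CPM per kb of exon on a log axis, with members ordered by their mean. Rab2a and Rab1a lead, and the 4 libraries lie close together for most members. Vamp8 is the member whose treated libraries lie farthest below its controls. It passed the low-count filter through its controls alone, which fixes that direction.

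The comparison with 1-nitropyrene asked which members changed in RNA level. The Rabs Rab10 and Rab11b and the Golgi syntaxin Stx5a rose, by 1.16-fold to 1.30-fold. Rab13 of tight junctions fell to 0.478 of control, the plasma membrane syntaxin Stx2 to 0.552, Vamp2 to 0.681 and Rab18 to 0.849. The R-SNARE Vamp8 was also called lower, but at low counts, and it passed the filter through its controls alone, which fixes that direction. Of the 48 tested members 3 rose (6.25%, against 13.2% of all genes tested) and 5 fell, Vamp8 included (10.4%, against 11.2%). Both treated libraries lay above both controls for 12 (30.0% of all genes tested lay so) and below both for 17 (29.2% of all genes). The 8 calls together were 16.7% of the tested members, below the 24.5% of all genes, and the median log2 fold change was -0.07, against -0.0035 over all genes. Rab10, Rab13, Rab18 and Vamp2 kept their call under each alternative that gave them an adjusted p, whereas Rab11b, Stx5a and Stx2 did not. DESeq2 called 4 members (Rab10, Rab13, Rab18 and Vamp2) and gave no adjusted p for 10.

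**Figure D2:**
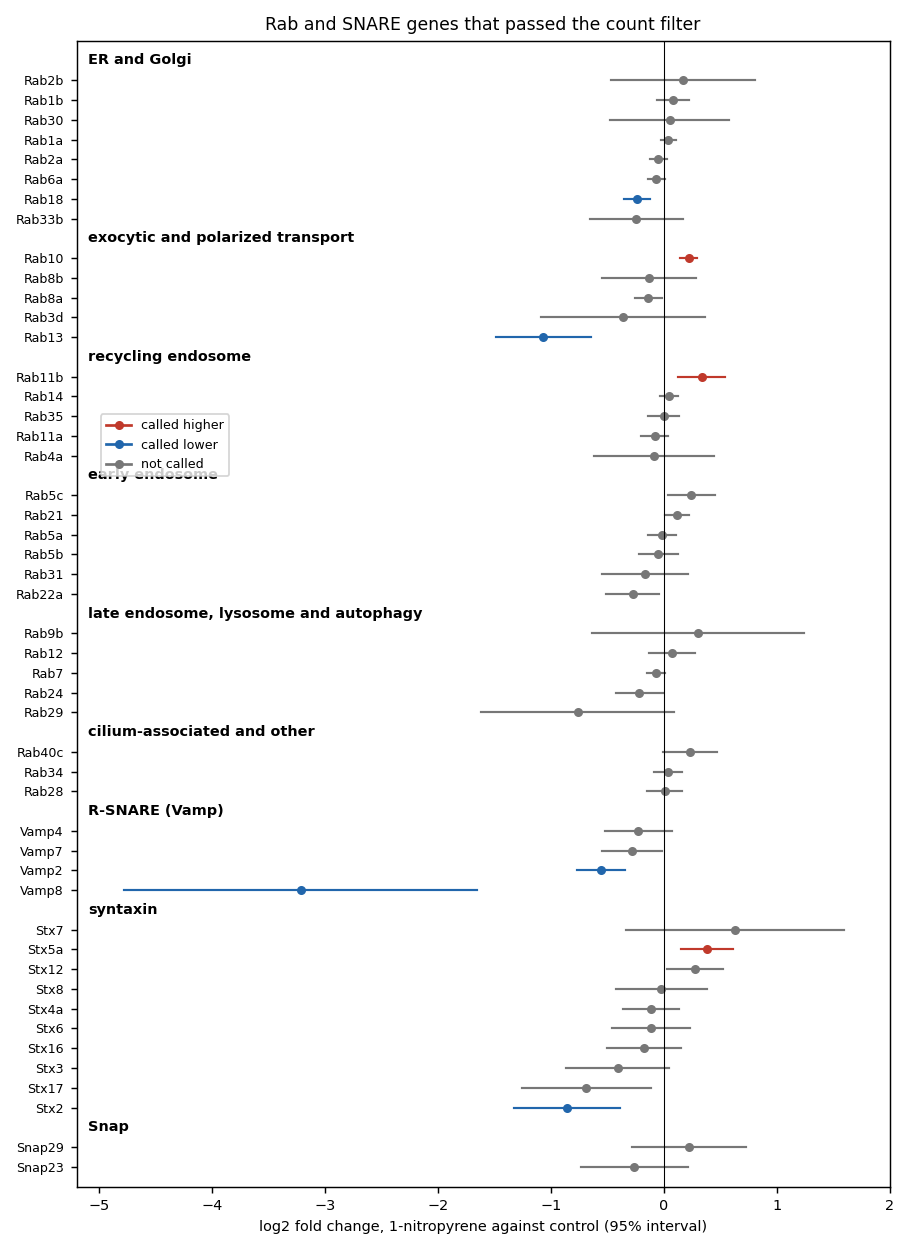
Log2 fold change of the 48 tested members, 1-nitropyrene against control, grouped by role, with 95% intervals from the fitted standard errors and colours for the edgeR call. The 3 called higher (Rab10, Rab11b, Stx5a) lie between 0.22 and 0.38, and the 5 called lower between -0.24 and -3.22.

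Among the Rabs of exocytic and polarized transport, 5 of 13 were tested, 1 rose and 1 fell (20% each). Of all genes tested 13.2% rose and 11.2% fell. Rab10 (GRCm38 chromosome 12, 3247428 to 3309969) directs vesicles, among them those with the glucose transporter GLUT4, to the plasma membrane. It was at 341 and 350 CPM in control replicates 1 and 2 and at 408 and 395 CPM in 1-nitropyrene replicates 2 and 3. Both treated libraries lay above both controls. The group means were 345 ± 5.94 and 401 ± 9.74 CPM (SD, n = 2 each), and the log2 fold change was 0.22 (SE 0.04, adjusted p = 8.55e-08, edgeR). Its exons share 143 bases with the opposite-strand gene Rab10os, which had 69.9 and 68.5 CPM in the control pair and 84.2 and 80.5 CPM with 1-nitropyrene (log2 fold change 0.25, SE 0.07, adjusted p = 0.0033, edgeR). Without a known strand setting, reads of the shared stretch cannot be told apart between these genes, and their part in the Rab10 result was not tested.

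Rab13 (chromosome 3, 90213695 to 90226385), which delivers proteins to tight junctions, went the other way. It had 10.8 and 14.0 CPM in the control pair and 5.52 and 5.99 CPM with 1-nitropyrene, so that the lower control was well above the higher treated library. The means were 12.4 ± 2.32 and 5.76 ± 0.334 CPM (SD, n = 2 each), and the log2 fold change was -1.07 (SE 0.21, adjusted p = 9.12e-06, edgeR). Their relatives Rab8a and Rab8b did not pass the test. Rab8a, which acts in transport to the apical surface and cilium, had 106 and 108 CPM in the control pair and 102 and 92.4 CPM with 1-nitropyrene. Its groups did not overlap, but its adjusted p was 0.0936 in edgeR, with a 95% interval of the treated-to-control ratio of 0.836 to 0.989. It was called lower without TMM factors (adjusted p = 0.0325), among genes averaging 10 CPM or more (adjusted p = 0.0376), and when 1-nitropyrene replicate 2 was left out (adjusted p = 0.0276). Rab8b had 7.54 and 11.04 CPM in the control pair and 7.59 and 8.70 CPM in the treated pair, overlapping values with an interval of 0.685 to 1.22. Rab3d, a Rab of secretory granules, stood at 3.40 and 2.72 CPM against 2.76 and 2.12 CPM. Within this branch the RNA of Rab10 and that of Rab13 were thus called in opposite directions.

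On recycling endosomes 5 of 8 Rabs were tested and Rab11b (chromosome 17, 33742484 to 33760530) rose. It had 27.4 and 30.7 CPM in the control pair and 39.6 and 32.8 CPM with 1-nitropyrene. Its log2 fold change was 0.33 (SE 0.11, adjusted p = 0.0111, edgeR). The call was lost without 1-nitropyrene replicate 2 (log2 fold change 0.19) and without control replicate 1 (0.24). It was also lost without a low-count filter (adjusted p = 0.0839, edgeR), in DESeq2 (0.219) and at an adjusted p under 0.01. Its exons share 329 bases with the opposite-strand gene Gm17251, which had at most 2 counts in a library, and 9.47% of its 50-base stretches occur in other genes on the same strand, the foremost being the pseudogene Rab11b-ps2, listed at 0. Its paralog Rab11a had 96.0 and 116 CPM in the control pair and 99.3 and 98.4 CPM with 1-nitropyrene, values that overlapped, with an interval of the ratio of 0.869 to 1.03. Rab14, which moves cargo between Golgi and endosomes, stood at 278 and 276 CPM against 283 and 290 CPM, and Rab35, of fast recycling to the plasma membrane, at 83.0 and 79.7 CPM against 88.1 and 74.7 CPM. Their log2 fold changes were 0.05 and -0.0020, and neither passed the test.

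Of the 12 Rabs of endoplasmic reticulum and Golgi 8 were tested and Rab18 (chromosome 18, 6733905 to 6794429), found on the endoplasmic reticulum and lipid droplets, fell. Its values were 124 and 122 CPM in the control pair and 103 and 107 CPM with 1-nitropyrene, with a wider gap between the groups than within them (log2 fold change -0.24, SE 0.06, adjusted p = 5.59e-04, edgeR). Rab1a and Rab1b, which carry transport from endoplasmic reticulum to Golgi, did not pass the test. Rab1a had 521 and 518 CPM in the control pair and 536 and 531 CPM in the treated pair, and the interval of its ratio reached from a log2 value of -0.03 to 0.10. Rab2a (371 and 371 CPM against 341 and 377 CPM) overlapped between the groups. Rab6a (294 and 303 CPM against 279 and 291 CPM) was lower in both treated libraries, with an adjusted p of 0.25 in edgeR.

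The other Rabs gave no call. For the 6 tested Rabs of early endosomes edgeR, DESeq2 and limma-voom called 0, with 3 at an unadjusted p under 0.05. Of all genes tested 24.5% were called by edgeR, so at least that share had an unadjusted p under 0.05. The exact share was not counted, here or for the same counts below. Rab5c, one of the Rab5 isoforms that drive fusion of early endosomes, had 34.5 and 25.5 CPM in the control pair and 36.5 and 36.5 CPM with 1-nitropyrene. It was called higher without control replicate 1, the library nearer to the treated ones (log2 fold change 0.52, adjusted p = 0.00849, edgeR). Rab5a (log2 fold change -0.02) and Rab5b (-0.05) lay near 0. Rab22a, of early and recycling endosomes, had 28.2 and 29.4 CPM in the control pair and 24.6 and 22.8 CPM with 1-nitropyrene (adjusted p = 0.0787, edgeR), and it was called lower without TMM factors (adjusted p = 0.0455). Rab21, an endosomal Rab that binds integrins, had 125 and 125 CPM in the control pair and 136 and 135 CPM in the treated pair (adjusted p = 0.112, edgeR). For the 5 tested Rabs of late endosomes, lysosomes and autophagy the 3 tools also called 0, with 1 at an unadjusted p under 0.05. DESeq2 gave no adjusted p for 2 of these 5. Rab7, which governs fusion of late endosomes with lysosomes, was at 293 and 292 CPM in the control pair and 277 and 279 CPM with 1-nitropyrene (log2 fold change -0.07, adjusted p = 0.197, edgeR). Part of the Rab7 sequence (11.2% of 50-base stretches) is shared with other genes on the same strand, foremost the pseudogene Rab7-ps1, which had 183 and 112 counts in the control pair and 149 and 119 with 1-nitropyrene. Rab24, an atypical Rab of autophagy, had 38.6 and 30.4 CPM against 29.8 and 30.9 CPM, and 1258 of its 2015 exon bases lie opposite exons of Prelid1. Among the tested Rabs the widest intervals were those of the low members Rab9b (log2 fold change 0.30, SE 0.48) and Rab29 (-0.76, SE 0.44).

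Of the 3 remaining tested Rabs, Rab28, Rab34 and Rab40c, edgeR, DESeq2 and limma-voom called 0, with 0 at an unadjusted p under 0.05, and their log2 fold changes were 0.0071, 0.04 and 0.23.

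**Figure D3:**
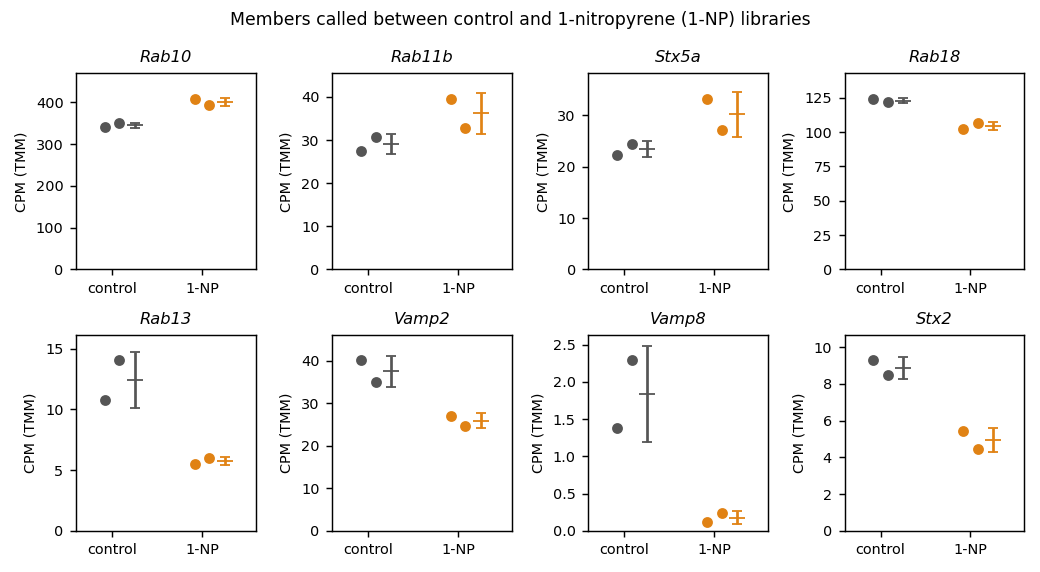
TMM-normalised CPM of the 8 called members in each library (points), with the mean and SD of each group of 2 libraries beside them and every axis starting at 0. In all 8 panels the 1-nitropyrene (1-NP) libraries lie on one side of both controls, which the call itself favours.

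The R-SNAREs of the Vamp family were lower in both treated libraries than in both controls for all 4 tested members, Vamp8 by the filter, a position that 29.2% of all genes tested held. Of the 4, Vamp2 and Vamp8 were called lower (50%, against 11.2% of all genes tested), Vamp8 in a direction set by the filter. Vamp2 (chromosome 11, 69088490 to 69092384), an R-SNARE of secretory and recycling vesicles, had 40.2 and 35.0 CPM in the control pair and 27.1 and 24.7 CPM with 1-nitropyrene. The controls averaged 37.6 ± 3.69 CPM and the treated libraries 25.9 ± 1.74 CPM (SD, n = 2 each), and the log2 fold change was -0.55 (SE 0.11, adjusted p = 6.07e-06, edgeR). Vamp8 (chromosome 6, 72385223 to 72390703), which serves late endosomes, autophagosomes and regulated secretion, had 15 and 16 counts in the control pair and 1 and 2 counts with 1-nitropyrene. Per total count this was a control-to-treated ratio of 10.2 (95% interval 3.17 to 52.0), for counting error only, reads that carry no molecular identifier not being independent molecules. Its adjusted p was 5.11e-04 in edgeR, and DESeq2 gave it none. Vamp8 passed the filter on low counts through its controls alone, so that it had to be lower in the treated libraries. Of the mesenchymal markers, some at low counts lay the same way, such as Col1a2 with 17 and 7 counts against 0 and 1 and Tagln with 10 and 7 against 1 and 0, both chosen after their values were seen. The abundant markers Vim and Fn1 rose, and the summed level of the list was higher with 1-nitropyrene, as given above. Their part in the Vamp8 result was not tested.

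Vamp7, of lysosomes and secretory vesicles, had 21.3 and 22.8 CPM in the control pair and 17.1 and 18.9 CPM with 1-nitropyrene (adjusted p = 0.124, edgeR). Vamp4, of the trans-Golgi network, had 18.7 and 16.3 CPM against 15.99 and 14.3 CPM (adjusted p = 0.299, edgeR). Neither passed the test, and the treated-to-control ratio had an interval of 0.682 to 0.991 for Vamp7 and 0.696 to 1.05 for Vamp4. Vamp3, the close relative of Vamp2 on recycling endosomes, had 2 and 1 counts in the control pair and 4 and 1 with 1-nitropyrene and was not tested. Summed over the family, Vamp RNA was at 82.0 and 76.5 CPM in the control pair and 60.8 and 58.3 CPM with 1-nitropyrene. Vamp2 supplied 44.3% and 40.3% of the family's level per kb in the control pair and 40.5% and 37.6% in the treated pair, while Vamp7 supplied 35.3% and 39.5%, then 38.4% and 43.3%. Vamp2 thus led in both controls and Vamp7 in 1-nitropyrene replicate 3.

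**Figure D4:**
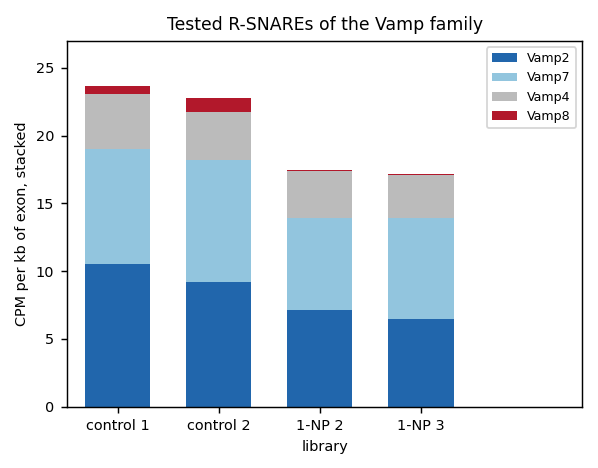
Stacked levels of the 4 tested Vamps in each library, in CPM per kb of exon on a linear axis that starts at 0. The stack is lower in both 1-nitropyrene (1-NP) libraries than in both controls. The smallest band, Vamp8, is nearly absent from the 1-NP libraries, a direction that the low-count filter fixed.

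Of the 10 tested syntaxins 1 was called higher and 1 lower (10% each), against 13.2% and 11.2% of all genes tested. DESeq2 called 0 of them and gave no adjusted p for 2. Stx5a (chromosome 19, 8741413 to 8756069), the Q-SNARE of transport from endoplasmic reticulum to Golgi and within the Golgi, had 22.4 and 24.5 CPM in the control pair and 33.2 and 27.1 CPM with 1-nitropyrene. The log2 fold change was 0.38 (SE 0.12, adjusted p = 0.00828, edgeR). As for Rab11b, the call was lost without 1-nitropyrene replicate 2 (log2 fold change 0.23) and without control replicate 1 (0.30). It was also lost without a low-count filter (adjusted p = 0.0695, edgeR) and in DESeq2 (0.187). Stx2 (chromosome 5, 128984557 to 129008574), of the plasma membrane, had 9.29 and 8.46 CPM in the control pair and 5.41 and 4.47 CPM in the treated pair. The log2 fold change was -0.86 (SE 0.24, adjusted p = 0.00251, edgeR). This call ended in DESeq2's test (adjusted p = 0.0845), when control replicate 1 was left out (adjusted p = 0.0867) and when 1-nitropyrene replicate 3 was (0.0629).

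The other plasma membrane syntaxins tested and Snap23 did not pass the test. Stx3, an apical syntaxin, had 9.11 and 6.59 CPM in the control pair and 6.67 and 5.52 CPM with 1-nitropyrene. Stx4a had 25.6 and 23.9 CPM against 25.1 and 20.9 CPM, and Snap23, which pairs with these syntaxins, had 6.53 and 8.03 CPM against 5.06 and 6.82 CPM. All 3 overlapped between the groups, with an interval of the ratio, treated over control, of 0.600 to 1.16 for Snap23, 0.549 to 1.03 for Stx3 and 0.779 to 1.10 for Stx4a. Of the surfactant-release SNAREs named at the outset, Vamp2 fell, Stx2 fell with the lost calls given above, and Snap23 gave no call. In these libraries 6 of 12 alveolar type 2 markers were at 0 and the other 6 had a count.

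The SNAREs that join autophagosomes to lysosomes are Stx17, Snap29 and Vamp8. Stx17 had 5.52 and 6.02 CPM in the control pair and 3.34 and 3.76 CPM with 1-nitropyrene, without overlap but with an adjusted p of 0.0685 in edgeR. Snap29 had 5.70 and 4.87 CPM in the control pair and 5.75 and 6.82 CPM in the treated pair (adjusted p = 0.578, edgeR). Neither was called, and the call of Vamp8 carries the limit given above. In the trans-Golgi and endosomal sets Stx6, Stx7, Stx8, Stx12 and Stx16 did not pass the test, with log2 fold changes from -0.17 for Stx16 to 0.63 for Stx7. Stx12, of recycling endosomes, had 21.5 and 20.9 CPM against 26.3 and 25.3 CPM, the nearest to a call among them (adjusted p = 0.0952, edgeR).

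Members below the filter were not tested. Rab20, a Rab of phagosomes, had 9 and 7 counts in the control pair and 7 and 4 with 1-nitropyrene. Rab37, of secretory granules, had 8 and 4 counts against 1 and 1. The other 11, among them Rab25, Rab27a and Stx1a, had between 1 and 8 counts in total.

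Promoter sequence is shown for the 2 members with the deepest falls and RefSeq promoters, Vamp8 and Rab13. That of the most abundant member that rose, Rab10, is shown too. The direction of Vamp8 was fixed by the filter, as given above. Each sequence is the 200 bases before the outermost RefSeq start site (GRCm38.p6), 5′ to 3′ on the gene's strand. Capitals mark GCGTG on either strand, the core that the Ah receptor, a sensor of polycyclic hydrocarbons, is known to bind. The windows are chr6:72390668-72390867 (minus strand) for Vamp8, chr3:90213515-90213714 (plus strand) for Rab13 and chr12:3309970-3310169 (minus strand) for Rab10.
Vamp8: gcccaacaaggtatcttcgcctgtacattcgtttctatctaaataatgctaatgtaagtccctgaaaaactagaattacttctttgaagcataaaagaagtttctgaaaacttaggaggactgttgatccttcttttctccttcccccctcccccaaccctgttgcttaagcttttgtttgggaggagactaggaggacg
Rab13: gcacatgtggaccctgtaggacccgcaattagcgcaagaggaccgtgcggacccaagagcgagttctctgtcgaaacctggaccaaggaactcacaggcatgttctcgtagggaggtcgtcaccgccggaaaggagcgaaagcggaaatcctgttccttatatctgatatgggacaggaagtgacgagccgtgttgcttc
Rab10: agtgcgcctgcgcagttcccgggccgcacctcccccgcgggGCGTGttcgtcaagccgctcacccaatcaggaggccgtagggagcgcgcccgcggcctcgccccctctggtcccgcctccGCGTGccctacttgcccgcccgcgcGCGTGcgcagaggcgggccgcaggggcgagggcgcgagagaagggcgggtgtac
The window of Rab10 held 3 matches and those of Vamp8 and Rab13 held 0. GCGTG occurred in 35.6% of the 87 promoter windows of the 70 members in the table and in 24.7% of all 32851 windows of this length. The E-box CACGTG, which reads the same on both strands and is bound by lysosomal gene regulators such as TFEB, occurred in 5.75% and 5.26% and in none of the 3 windows shown. A match describes the letters only, and no match says nothing about the factor. Base composition was not compared between windows, and the windows of the other called members are not shown.

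The rest of the machinery around Rabs and SNAREs was followed through 14 further gene lists, of which 162 of 265 genes were tested. Of these 9 rose (5.56%) and 20 fell (12.3%), against 13.2% and 11.2% of all genes. The median log2 fold change was -0.02. Of the 29 genes called, 8 kept their call under every alternative with an adjusted p (Rabac1, Pde6d, Sbf2, Dennd5a, Rabep1, Napa, Snapin and Exoc5), and 21 lost it in at least 1.

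Among the 13 tested genes of Rab prenylation and recycling 1 rose and 1 fell (7.69% each), against 13.2% and 11.2% of all genes tested. Rabac1, a membrane protein that binds prenylated Rabs, rose from 21.1 and 18.5 CPM to 30.6 and 29.4 CPM (log2 fold change 0.58, SE 0.12). Pde6d, which carries prenylated proteins through the cytosol, fell from 60.0 and 58.3 CPM to 48.3 and 45.5 CPM (-0.34, SE 0.08). Exchange factors, which load Rabs with GTP, had 5 of 25 tested genes higher (20%) and 4 lower (16%), against 13.2% and 11.2% of all genes tested. DESeq2 called 3 of the 25 and gave no adjusted p for 7. Sbf2 fell from 70.7 and 71.2 CPM to 52.2 and 55.5 CPM, and Dennd5a from 213 and 201 CPM to 176 and 179 CPM. Rin2, which activates Rab5, rose from 75.0 and 72.4 CPM to 84.6 and 97.5 CPM, a call lost without 1-nitropyrene replicate 3 (adjusted p = 0.0714, edgeR). Dennd5b, the paralog of Dennd5a, rose from 12.6 and 13.6 CPM to 18.1 and 19.9 CPM, but was not called by DESeq2 (adjusted p = 0.102), without control replicate 1 (0.114) or without 1-nitropyrene replicate 3 (0.0628).

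Of the GTPase-activating proteins 4 of 28 tested were called lower (14.3%) and 0 higher, and of the effectors 6 of 33 (18.2%) and 0, where 11.2% of all genes tested were called lower and 13.2% higher. DESeq2 called 0 of the GTPase-activating proteins, against 5 at an unadjusted p under 0.05 in edgeR, and 1 of the effectors. It gave no adjusted p for 9 of the 28 GTPase-activating proteins and 16 of the 33 effectors. Of the GTPase-activating proteins, Tbc1d20, which acts on Rab1 and Rab18, was at 109 and 108 CPM in the control pair and 89.2 and 98.1 CPM with 1-nitropyrene. DESeq2 did not call it (adjusted p = 0.103), nor was it called without control replicate 1 (0.0786) or without 1-nitropyrene replicate 2 (0.141). Sgsm3 (log2 fold change -0.35), Tbc1d10b (-0.21) and Tbc1d2b (-1.11) were the other calls, and each lost its call without control replicate 1 (adjusted p = 0.0667, 0.348 and 0.265) and without 1-nitropyrene replicate 2 (0.0681, 0.0672 and 0.152). Of the effectors, Rabep1, which binds Rab5 on early endosomes, fell from 137 and 130 CPM to 101 and 108 CPM (log2 fold change -0.36, SE 0.06, adjusted p = 1.4e-08, edgeR). Kif16b, a kinesin of early endosomes, fell from 80.5 and 84.0 CPM to 66.7 and 70.0 CPM, a change that DESeq2 did not call (adjusted p = 0.0703). Mical3, an effector of Rab8, was lower by a log2 value of -0.48 (SE 0.15), and was not called by DESeq2 (adjusted p = 0.127), without control replicate 2 (0.0990) or without 1-nitropyrene replicate 3 (0.103). Rilpl1, which binds phosphorylated Rabs such as Rab8 and Rab10, had 11.4 and 9.03 CPM against 6.67 and 6.70 CPM, and its call was lost without control replicate 1 (adjusted p = 0.373) and without either treated library (0.0723 and 0.0698).

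Proteins that take SNARE bundles apart or guide their assembly had 1 of 14 tested genes higher (7.14%) and 3 lower (21.4%). Of all genes tested 13.2% were called higher and 11.2% lower. DESeq2 called 2 of the 14. Napa, the adaptor that brings the ATPase NSF to spent SNARE bundles, rose from 55.3 and 50.6 CPM to 83.4 and 70.7 CPM (log2 fold change 0.53, SE 0.08, adjusted p = 1.42e-10, edgeR). Snapin, a binding partner of Snap proteins that is also a subunit of the lysosome-related complex BLOC-1, fell from 21.7 and 23.5 CPM to 12.9 and 14.5 CPM (-0.71, SE 0.15), and shares 354 exon bases with the opposite-strand gene Ilf2. Txlna and Stxbp5, which bind syntaxins, were lower by log2 values of -0.73 and -0.37, and neither DESeq2 (adjusted p = 0.182 and 0.264) nor limma-voom (0.0599 and 0.0609) called them. Txlna was not called without control replicate 2 (adjusted p = 0.354) or without 1-nitropyrene replicate 2 (0.207), and Stxbp5 was not called with any one library left out (0.0790 to 0.223). Of the tethering complexes 2 of 35 tested genes rose and 2 fell (5.71% each), against 13.2% and 11.2% of all genes tested. Of the exocyst, which tethers vesicles at the plasma membrane, Exoc5 rose from 221 and 233 CPM to 255 and 268 CPM (0.21, SE 0.04) and shares 528 exon bases with the opposite-strand gene Ap5m1. Exoc7 was lower by a log2 value of -0.35 (SE 0.11), and was not called by DESeq2 (adjusted p = 0.133), without control replicate 1 (0.212) or without 1-nitropyrene replicate 2 (0.0921). Exoc8, with 21 and 10 counts against 4 and 4, passed the filter through its controls alone, which fixes its direction among the exocyst and machinery calls. It was not called without control replicate 1 (0.271) or without either treated library (0.0799 and 0.0604). Vps51 of GARP and EARP, which tether vesicles at the Golgi and endosomes, had 12.9 and 13.8 CPM against 18.9 and 19.7 CPM, and was not called by DESeq2 (adjusted p = 0.0940) or without control replicate 1 (0.0994). In COG (7 tested) and TRAPP (8) the 3 tools called 0, with 0 at an unadjusted p under 0.05. DESeq2 gave no adjusted p for 2 genes of COG and 1 of TRAPP. In Dsl1 with p115 (2) edgeR and limma-voom called 0, with 0 at an unadjusted p under 0.05, and DESeq2 gave no adjusted p. In HOPS and CORVET (5) the 3 tools called 0, with 1 at an unadjusted p under 0.05. Of the 8 tested SNAREs outside the numbered families, such as Sec22b and Ykt6, edgeR, DESeq2 and limma-voom called 0, with 0 at an unadjusted p under 0.05. DESeq2 gave no adjusted p for 2 of these 8. Of the 4 tested Rab-like GTPases the 3 tools called 0, with 2 at an unadjusted p under 0.05, and DESeq2 gave 2 of the 4 no adjusted p. In the list of synaptotagmins, Munc13 proteins and complexins, which trigger regulated secretion, 22 of 31 genes were listed at 0. Of the 2 tested edgeR and limma-voom called 0, with 0 at an unadjusted p under 0.05, and DESeq2 gave no adjusted p.

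**Figure D5:**
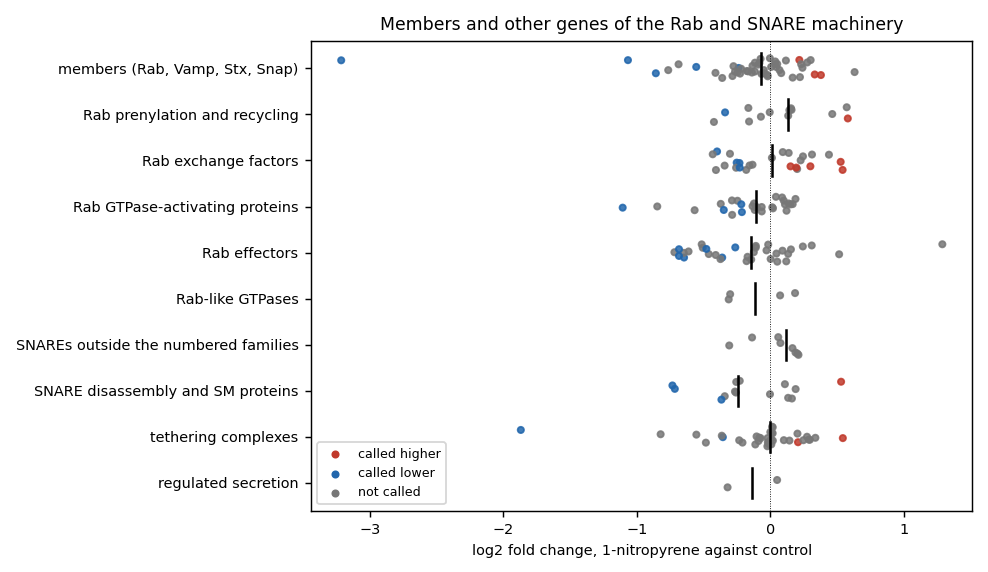
Log2 fold change of each tested gene (points, coloured by the edgeR call) among the members and the further lists, with each list's median as a vertical bar and points spread vertically only for legibility. The members' median is -0.07, and the called effectors and GTPase-activating proteins all lie left of 0.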

How the data were processed

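The authors deposited raw counts of reads for each gene in 4 libraries, without normalization. Per the submitters' processing notes, HISAT2 2.1.0, featureCounts 1.6.3 and DESeq2 were used with GRCm38 (mm10), their roles not named. The kit was stranded, per the labels' protocols, while strand setting, annotation release and multi-mapping rule were not given in the sources used here.

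Of the identifiers, 53360 were matched to GENCODE M21 and 105 were not. Counts were tested with edgeR 4.0.16 in R 4.3.3 (filterByExpr, TMM factors 0.989 to 1.01, quasi-likelihood fit with legacy set to FALSE, treatment as the only term, two-sided, Benjamini-Hochberg over 7738 genes). The fit pooled the spread fully over genes (biological coefficient of variation 2.34%). Standard errors are the absolute log2 fold change over the square root of F, and 95% intervals use them with the normal quantile. In simulated counts with the same spread set for all genes, the fit recovered 26.9% of 1.25-fold, 52.2% of 1.5-fold and 87.5% of 2-fold changes. Of its calls there 0.901% were false. Such counts cannot show how the pooled fit does where spread differs between genes. Replicates differed by more than sampling noise (chi-square per degree of freedom 1.62 and 2.05), so none were merged for the edgeR test. The count ratio of Vamp8 used counts summed within each group, and its interval leaves this extra spread out.

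Alternatives were limma-voom (limma 3.58.1), DESeq2 1.42.0, other scalings, filters, thresholds and each library left out, 16 in all. Members and lists were chosen with earlier results of these data known. Named were all called members, their relatives and partners, and up to 4 called genes per list with the smallest p. The Ah receptor and E-box motifs, Rab10os and the pseudogenes were chosen after values were seen.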

Additional observations from a re-analysis of the deposited data

How the results depend on the processing

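No member or machinery gene called by edgeR reversed its direction under any of the 16 alternatives that fitted it, all of which reuse these libraries. Vamp8 and Exoc8, with an adjusted p in 14 of the 16, passed the filter through their controls alone, which fixes their direction. Members called higher numbered 3, and 1 without a low-count filter and in DESeq2. Members called lower numbered 5, and 3 in DESeq2. Other machinery genes called higher numbered 9 (4 in DESeq2), and those called lower 20 (13 without a low-count filter, 5 in DESeq2, 11 at an adjusted p under 0.01). Of all genes, 1024 were called higher (514 in DESeq2) and 870 lower (532 without a low-count filter, 316 in DESeq2, 568 at an adjusted p under 0.01). With each library left out in turn, the counts ranged from 1 to 3 and from 5 to 6 for members higher and lower. They ranged from 4 to 10 and from 10 to 14 for other machinery, and from 690 to 861 and from 511 to 647 for all genes. The low values came without 1-nitropyrene replicate 2 for members higher, without control replicate 1 and without 1-nitropyrene replicate 3 for machinery higher (4 each), without control replicate 1 (10), 1-nitropyrene replicate 2 (11) or 1-nitropyrene replicate 3 (13) for machinery lower, and without control replicate 1 for all genes lower (511). The cause was not tested. In those fits the single library of the reduced group is taken to vary like the other pair. Another 6 members, not called, were called in some alternative: Rab2a, Rab5c, Rab8a, Rab11a, Rab22a and Rab24. No paired analysis was possible because the controls carry replicate numbers 1 and 2 and the treated libraries 2 and 3, with only number 2 in common. Low members had wide intervals of the treated-to-control ratio, such as 0.600 to 1.16 for Snap23, and the shares of depth and of spread between libraries in this were not tested.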
